A study of Bos taurus with 8 samples.

Results

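Some of the oligonucleotide probes on the bovine arrays used for this endometrium study contain a short piece of the telomere repeat. The C-rich strand of that repeat is a tandem array of CCCTAA. A probe was taken as a member if its 60 bases held 8 or more consecutive bases of that array, in any of its 6 registers, and this gave 97 of 43653 noncontrol probes (0.222%). The members were grouped by the length of the match, with 73 probes at 8 bases, 17 at 9 and 7 at 10 or more. For comparison, 52 probes (0.119%) matched the G-rich strand, GGGTTA, by 8 or more bases, and 1 probe matched both strands. The interest in these probes came from their values in the same 8 arrays, so every difference between the groups given here describes them, and none is a test.

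The samples were endometrial biopsies of 8 cows, 1 array per cow. Methylglyoxal, a reactive dicarbonyl formed as a by-product of glycolysis, had been put into the uterine horns at 0 mM (4 cows) or 5 mM (4 cows), in a volume of 25 mL per horn on day 1 after estrus, and the horn next to the corpus luteum was sampled on day 7. The labels do not give breed or age, nor what the 0 mM fluid was. Levels are log2 processed signals after subtraction of the log2 75th percentile on each array, so a probe at that percentile has a level of 0. Differences are 5 mM minus 0 mM, each with its standard error (SE), and group values are means ± SD over 4 cows. Where the 8 values of a probe are listed, they run from replicate 1 to replicate 4 of 0 mM and then from replicate 1 to replicate 4 of 5 mM.

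Telomeres are the ends of chromosomes, where the hexamer is repeated in tandem and bound by the shelterin proteins. Short copies of the hexamer also lie inside chromosomes, and in coding sequence or untranslated parts of ordinary transcripts. Telomeres are transcribed from the chromosome side outwards into a G-rich RNA called TERRA. A probe binds labelled strands of complementary sequence, so probes with C-rich and G-rich letters read opposite strands. The G-rich probes are the comparison with the same repeat in the other orientation. Which of these kinds of probe would read TERRA depends on the strand that was labelled, and this was not tested.

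Between 68.3% and 73.2% of probes were well above background on each array, and no probe was saturated. By limma, with p-values adjusted after Benjamini and Hochberg, 0 of 31108 tested probes had an adjusted p under 0.05 (0%), with 595 at an unadjusted p under 0.05 and a smallest adjusted p of 0.913. With 8 arrays in all, the precision of each value is limited. Checked against the tissue label, 9 stromal markers averaged 2.36 to 2.88 in the 0 mM arrays and 2.42 to 3.31 in the 5 mM arrays. The mean of 9 epithelial markers was 1.08 to 1.67 in the 0 mM arrays and -2.40 to 1.37 in the 5 mM arrays, and the lowest value was that of 5 mM replicate 1. In such biopsies, fewer cells of a type and less RNA per cell cannot be told apart. All 10 smooth muscle markers had a higher mean in the 5 mM group, with a median difference of 1.1. Their mean was 0.59 to 3.77 in the 0 mM arrays and 0.94 to 5.21 in the 5 mM arrays, so the groups overlapped. It was highest on 5 mM replicates 1 and 3, while 5 mM replicates 2 and 4 lay below 0 mM replicate 1. Tested probes were those well above background on 4 arrays or more, and 79 of the 97 C-rich members and 44 of the 52 G-rich probes were.

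The sequences of the members around their matches show where the match lies and what surrounds it. Each line gives 30 bases of the probe, 5′ to 3′, as the array files print them, with the bases that match the repeat in capitals. The first 7 are all the members with a match of 10 or more, from the longest to the shortest, and the next 6 are members with a match of 9 or 8 whose values are described after them.
UQCRB (13 bases): CTAACCCTAACCCcttcctggggctttatt
RFFL (11 bases): gttaaaacaaCCTAACCCTAAgcaccaccc
A_73_P489898 (11 bases): ctaacacagCTAACCCTAACtgtgttcata
A_73_P171127 (11 bases): ctcactCCCTAACCCTAtatcctaagaatc
A_73_P176002 (10 bases): aaaagtgccctaaaaCTAACCCTAAgtttc
SYT12 (10 bases): aagagggacgACCCTAACCCagtgttcaat
A_73_P093361 (10 bases): gtgtcataaaCCTAACCCTAggttgagaac
GATA4 (9 bases): gtatacccttCCCTAACCCacaaaactgct
CCER2 (9 bases): tcaggacacagcccagatgCCCTAACCCgt
CMSS1 (9 bases): actagaagaaCTAACCCTAccagactcctg
AFMID (8 bases): atcctttggaaCCTAACCCaggaggactat
CES3 (8 bases): gggttactggatCCTAACCCctggctcctg
THSD4 (8 bases): tacaccagcagCCTAACCCaggagtccatt
The next 3 lines are members on bright probes, shown because they carry the same letters and had overlapping groups or a small difference.
TRMT112 (9 bases): tcctatgtatCCCTAACCCctgacccagtg
TIPRL (9 bases): gaattgatCCTAACCCTgcagactcaaaag
RAN (8 bases): aaaactgattggagACCCTAACttggagtt
The last 3 are the G-rich probes with the longest matches.
RHBDL2 (11 bases): ttacaaaagGGGTTAGGGTTtaaggaagga
VPS50 (10 bases): cagtatttgtGTTAGGGTTAatgacacagt
AIFM1 (10 bases): aatttcAGGGTTAGGGctgacaccagaaga

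All 7 members with a match of 10 or more were tested. Their median difference was 1.94, against 0.021 over all tested probes, and 6 of the 7 were at least 2-fold higher in the 5 mM group, where 1.36% of all tested probes were. The 4 values of the 5 mM group lay wholly above the 4 of the 0 mM group in 5 of the 7, a pattern that 1.02% of all tested probes had. Because these values led to the choice of the probes, nothing is read from these counts.

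The longest match, of 13 bases, was in the probe of UQCRB, which encodes a subunit of respiratory complex III, at chr14:66190538-66190597 (minus strand, build HGSC Btau_3.1). Its levels were -1.74, -4.48, -2.28 and -2.79 at 0 mM and -0.53, -0.98, -1.18 and -0.58 at 5 mM. The group values were -2.82 ± 1.18 and -0.82 ± 0.31 and did not overlap, with a difference of 2.0 ± 0.54. On this log2 scale the 0 mM values spread far wider than the 5 mM values and reached lowest at replicate 2.

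The probe of RFFL, an E3 ubiquitin ligase of endosomal membranes (chr19:14535409-14535468, plus strand), had levels of -0.94, -2.56, -1.25 and -1.90 at 0 mM and 0.00093, -0.33, -0.74 and -0.012 at 5 mM. The group values were -1.66 ± 0.72 and -0.27 ± 0.35, a difference of 1.39 ± 0.36 without overlap. The order of the cows was that of UQCRB in the 0 mM group, with replicate 1 highest, then 3, then 4, then 2.

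SYT12, a synaptotagmin of vesicle trafficking, has its probe at chr29:46942694-46942753 (plus strand). Its levels were -1.35, -4.01, -1.93 and -2.92 at 0 mM and -0.31, -0.26, -0.96 and -0.58 at 5 mM, with group values of -2.55 ± 1.17 and -0.53 ± 0.32 and a difference of 2.02 ± 0.54. The groups did not overlap, and 0 mM replicate 2 was again the lowest array.

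The other 4 long matches lie in probes named here by identifier. A_73_P489898 (chr5:63852126-63852185, minus strand) read -1.55, -3.64, -1.67 and -2.76, then -0.42, -0.29, -0.88 and -0.25, a difference of 1.94 ± 0.46 without overlap. A_73_P176002 (chr3:71504943-71505002, minus strand) read -1.54, -3.73, -1.17 and -1.77, then -0.39, -0.14, 0.32 and 0.76, a difference of 2.19 ± 0.55 without overlap. Both had the drop at 0 mM replicate 2, and A_73_P176002 differed from the other long matches in that 5 mM replicates 3 and 4 were its highest arrays. A_73_P171127 (chr16:68477153-68477212, minus strand) read -1.37, -2.26, -1.25 and -2.19, then 0.43, -0.71, -1.31 and -0.60. Its difference was 1.22 ± 0.40, and its groups overlapped since 5 mM replicate 3 lay below 0 mM replicate 3.

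A_73_P093361 (chr3:98083023-98083082, minus strand) was the exception. It read 0.40, 0.73, 0.65 and 0.51, then 0.65, 1.13, 0.47 and 0.71, with a difference of 0.17 ± 0.18 and overlapping groups. It was also the brightest of the 7, with a level above the 75th percentile on every array.

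The mean level of the 7 long matches was -1.16, -2.85, -1.27 and -1.97 at 0 mM and -0.083, -0.23, -0.61 and -0.079 at 5 mM. The 2 groups did not overlap, the 0 mM group held most of the spread of these log2 levels, and replicate 2 of it stood lowest. This profile over the 8 arrays served as a yardstick. A tested probe was called in step with it when Pearson's r over the 8 arrays was 0.9 or more, the probe itself being left out of the profile where it was one of the 7. Of 30839 tested probes with a value on all arrays 37 (0.12%) were in step, and 20 of them were C-rich members, out of 78 members with such an r. The median r was 0.98 for matches of 10 or more, 0.57 for 9, 0.47 for 8 and 0.028 for 7. The arrays share labelling, depth and group, so these r describe likeness over 8 points and no more.

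The median differences stayed near that of all tested probes for matches of 5 to 7 bases and rose with length from 8 bases on. The median difference was 0.022 for a longest match of 5 bases, 0.025 for 6, 0.010 for 7, 0.22 for 8, 0.64 for 9 and 1.94 for 10 or more. At least 2-fold higher were 56 of 3988 probes at 5 bases, 13 of 1018 at 6 and 5 of 202 at 7. The corresponding counts were 13 of 58 at 8, 5 of 14 at 9 and 6 of 7 at 10 or more. The medians thus differed most between 9 bases and 10 or more. At each length the range was wide, from -1.69 to 2.16 at 8 bases and from -0.33 to 2.06 at 9, so a match of 8 or 9 bases went with a higher value in some probes and not in others.

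Array by array, the medians of the same classes, each probe centred on its mean, moved together. For matches of 10 or more they were -0.11, -2.21, -0.24 and -0.97, then 1.01, 0.82, 0.55 and 0.96. For matches of 9 they were 0.038, -0.69, -0.22 and -0.34, then 0.90, 0.099, 0.17 and 0.30. For matches of 8 they were 0.013, -0.26, -0.11 and -0.20, then 0.47, 0.057, 0.066 and 0.058. In each class 0 mM replicate 2 had the lowest median and 5 mM replicate 1 the highest. The shorter classes had the same shape at smaller size, except that their 5 mM replicates 2 to 4 stood well below replicate 1.

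Just outside the bound, the 3 tested probes with a match of 7 and the largest absolute differences were mixed. TYRP1, a melanosome enzyme, differed by 2.08 ± 0.56, with a signal well above background in 1 cow at 0 mM and 4 cows at 5 mM. A_73_P167392 differed by 1.79 ± 1.38. COL26A1, a collagen gene, differed by -2.01 ± 1.79. Of these 3, TYRP1 was in step with the long matches.

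Over all 79 tested C-rich members the median difference was 0.35, from -1.69 to 2.19, with 62 members higher and 17 lower in the 5 mM group. The groups were wholly separate in 23 members, each time with 5 mM higher, while 0 were separate with 5 mM lower (1.02% and 0.524% of all tested probes). At least 2-fold higher were 24 members and at least 2-fold lower were 2, where 1.36% and 3.96% of all tested probes were. At an unadjusted p under 0.05 as well, 22 members were higher and 0 lower, where 0.203% and 0.331% of all tested probes were. In all, 63 tested probes of any sequence were higher by that rule, and the other 41 held no such match.

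Among members with a match of 9, GATA4 encodes a transcription factor of heart, gut and gonad. Its probe (chr8:7521543-7521602, minus strand) read -1.75, -4.53, -2.31 and -3.30 at 0 mM and -0.79, -0.84, -1.25 and -0.79 at 5 mM. The difference was 2.06 ± 0.55, and the groups did not overlap.

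CCER2, a gene for a coiled-coil protein, read -1.27, -2.98, -1.94 and -2.36, then -0.40, -0.69, -0.92 and -0.51, a difference of 1.51 ± 0.35. CMSS1, the homologue of a ribosomal small subunit factor, read -1.70, -2.79, -2.07 and -2.27, then -0.78, -1.10, -1.34 and -0.69, a difference of 1.23 ± 0.26. TGFBR3, the co-receptor betaglycan, differed by 1.41 ± 0.37. These 4 probes were among the 5 with a match of 9 that were in step, and none of the 4 had overlapping groups.

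With a match of 8, AFMID encodes the arylformamidase of the kynurenine pathway (chr19:55538078-55538137, minus strand). It read -1.92, -3.40, -2.30 and -3.02, then -0.68, -1.09, -1.27 and -0.72, with group values of -2.66 ± 0.67 and -0.94 ± 0.29 and a difference of 1.72 ± 0.33. CES3, a carboxylesterase, read -2.32, -4.53, -3.38 and -3.84, then -1.09, -1.74, -1.61 and -1.46, a difference of 2.04 ± 0.43. In both, the groups were separate and 5 mM replicate 1 was the highest array. THSD4, a protein of extracellular microfibrils, read -2.70, -5.37, -4.08 and -5.20, then -1.77, -2.76, -2.27 and -1.91. Its difference was 2.16 ± 0.58, and its groups overlapped by the narrow margin of 0 mM replicate 1 over 5 mM replicate 2.

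The other members in step with a match of 8 were SGSH, a lysosomal sulfatase (1.82 ± 0.48), TSPAN7, a tetraspanin (1.35 ± 0.35), and RHOG, a small GTPase (0.91 ± 0.17). Probes A_73_P182057, A_73_P155352, A_73_P144121 and A_73_P492243 differed by 2.14 ± 0.66, 2.0 ± 0.53, 1.40 ± 0.41 and 1.16 ± 0.25. RHOG was the only member in step that was less than 2-fold higher, and the values of these 7 were without overlap.

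Of the 20 members in step 14 had a symbol. They lay on 12 chromosomes, and their spots on rows 20 to 521 of 532 and columns 4 to 84 of 85 of the array, so they did not sit together on the array. The match began anywhere from base 1 to base 50 of the probe. All 20 were well above background on all 8 arrays. The median share of C among the bases of the probe was 28.3% in these 20, 25% in the tested members not in step, 20% in all tested probes and 16.7% in the tested G-rich probes. In each of the 20 the lowest array was 0 mM replicate 2, and the highest was 5 mM replicate 1 in 12, replicate 4 in 7 and replicate 2 in 1. The profile by which these 20 were chosen was itself lowest on 0 mM replicate 2, so their shared lowest array largely follows from the choice.

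With the group means removed, the median r with the profile over all tested members was 0.28. It was 0.95 in the 20 members in step, which were chosen by their r with the same profile. By this measure 15 members and 18 other probes had an r of 0.9 or more. Within the 0 mM group the profile, as deviations from the group mean, was 0.66, -1.04, 0.54 and -0.16, against 0.17, 0.024, -0.36 and 0.17 within the 5 mM group. Cows given the same fluid thus differed among themselves in these probes, on the log2 scale more so at 0 mM than at 5 mM. On a linear scale the spread was alike in the 2 groups. There the 20 members in step had a median SD between cows of 10.2% of the 75th percentile signal at 0 mM and 10.3% at 5 mM. Between pairs of probes, the median r was 0.90 among the matches of 10 or more, and 0.70 with group means removed. It was 0.42 and 0.13 for matches of 9, and 0.17 and 0.11 for matches of 8.

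The differences also went with the level of the probe. Of the 28 tested members whose mean level over the 8 arrays was above 0, the median difference was 0.11, 0 were at least 2-fold higher and 0 were in step, where 71 of 10811 (0.657%) of all tested probes at that level were at least 2-fold higher. Of all tested probes at that level 1 was in step. With 28 members, each count of 0 is near that background. Of the 33 with a mean level between -3 and 0, the median difference was 1.23, 19 were at least 2-fold higher, 21 had separate groups and 19 were in step. Among all tested probes of that middle range, 153 of 9734 (1.57%) were at least 2-fold higher. Of these 9734, 116 had separate groups with 5 mM higher and 26 (0.267%) were in step, the 19 members included. Of the 18 tested members below -3, the median difference was 0.39, 5 were at least 2-fold higher and 1 was in step. Of all 10563 tested probes below -3, 198 (1.87%) were at least 2-fold higher and 10 (0.0947%) were in step.

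On a linear scale, the 20 members in step differed by 16.3% to 86.3% of the array's 75th percentile signal, with a median of 36.5%. The 28 bright members had a median SD between cows of 37.3% of that percentile at 0 mM and 66.4% at 5 mM. The SD varied widely among these 28, and some had a small spread and a small difference. A_73_113844 had an SD of 22.0% at 0 mM and 18.2% at 5 mM and a difference of 2.06%, and STAMBP, a deubiquitinase, had SDs of 30.9% and 12.1% and a difference of -15.2%. The members in step stood at -4.34 to -0.89 in the 0 mM group and at -2.17 to 0.14 in the 5 mM group. Their SD across probes was 0.78 and 0.61.

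Among bright members, RAN, the GTPase of nuclear transport, is matched by a pair of probes. A_73_P041616 read 3.53, 3.53, 3.53 and 3.39, then 3.77, 3.65, 3.66 and 3.66, a difference of 0.19 ± 0.12, and A_73_P067986 differed by 0.12 ± 0.13. The first was the brightest member, and its groups were separate although the difference was small. TRMT112, an activator of methyltransferases, differed by 0.24 ± 0.16 and TIPRL, a regulator of phosphatases, by -0.015 ± 0.15, both with a match of 9. STAMBP (-0.10 ± 0.15), ITGB1, the integrin beta 1 chain (0.17 ± 0.21), and A_73_104056 (-0.33 ± 0.19) also had a match of 9 and overlapping groups. YBX1, a nucleic acid binding protein, and SLC40A1, the iron exporter ferroportin, had matches of 8 and differed by 0.31 ± 0.25 and -0.074 ± 0.19.

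The register of the repeat was uneven. Of the 6 octamers that the array of hexamers holds, CCTAACCC had the highest median difference among probes whose match was exactly 8 bases. Its 10 probes had a median difference of 1.53, with 7 at least 2-fold higher and 6 in step, where 1.36% and 0.12% of all tested probes were. The medians of the other registers were 0.071 for CCCTAACC (8 tested), 0.39 for CTAACCCT (11), -0.034 for TAACCCTA (6), 0.080 for AACCCTAA (15) and 0.17 for ACCCTAAC (8), with 1 or 2 probes each at least 2-fold higher. The registers also differed in level, with a median of -1.79 for CCTAACCC, -0.37 for CCCTAACC, -3.40 for CTAACCCT, -3.28 for TAACCCTA, 1.36 for AACCCTAA and 0.12 for ACCCTAAC, and the part of the level in these differences was not tested. Counted at any match length, CCTAACCC was in 23 of the 43653 probes. Of the 79 tested members 22 held it, with a median of 1.37, and of the 20 members in step 12 held it. Long matches that set the profile, such as UQCRB and RFFL, were among these. On the same count CCCTAACC had a median of 0.82 with 8 of 18 tested probes at least 2-fold higher, CTAACCCT 0.75 with 8 of 21, TAACCCTA 0.34 with 7 of 16, ACCCTAAC 0.33 with 5 of 14 and AACCCTAA 0.14 with 5 of 22. AFMID, CES3 and THSD4 carried CCTAACCC, and RAN carried ACCCTAAC. In the class of 7 bases just outside the bound, the 2 heptamers within CCTAACCC differed, with a median of 0.21 over the 22 tested probes with CTAACCC and of -0.043 over the 27 with CCTAACC, and 1 probe of each was at least 2-fold higher. Only the probe's own strand was searched for these letters, the registers overlap one another, and they were compared after their values were seen.

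Several genes with a member also had other probes on the array, which were not placed in exons or isoforms here. For 8 genes with a member in step, 15 tested probes with a match under 8 were on the array. These had a median difference of -0.052, from -0.83 to 0.45, and the members of those genes differed by 1.35 to 2.16. Of the 15, 0 were at least 2-fold higher or in step, where 1.36% and 0.12% of all tested probes were. With 15 probes, a count of 0 is near that background. The second probe of AFMID differed by -0.052 ± 0.33 and that of CES3 by 0.05. Those of UQCRB differed by -0.41 and -0.13, and those of RFFL by -0.69, -0.74 and -0.83.

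SGSH had second probes at 0.15 and 0.28, TGFBR3 at 0.45 and 0.28, and THSD4 at 0.31. The other probes of TSPAN7 stood at -0.14, -0.07 and 0.03. In all 8 genes the differences of the other probes were smaller than that of the member with the match. These members had been chosen by likeness to a profile that was itself higher in the methylglyoxal group, and the other probes had not. The contrast was therefore largely set by that choice, and nothing is read from it. Levels often differed as well, as in UQCRB, where the member had a mean level of -1.82 and another probe 1.86, and in TSPAN7, with -1.78 and 1.28. The second probes of GATA4 and CCER2 were not tested. For GATA4 it was not well above background on any array, at -9.00 to -8.21, so the probe with the match was the only one of this pair with a signal well above background. For 33 genes with members not in step, 61 other probes had a median difference of 0.11, from -0.64 to 0.72, and 0 were at least 2-fold higher. With a share of 1.36% over all tested probes, a count of 0 among 61 is near background too.

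The 17 probes in step that were not members were examined after their values were seen. In 12 of them the probe held a stretch of 9 or more bases that followed the repeat with 1 differing base. All 12 were at least 2-fold higher, with differences from 1.09 to 2.09 and a median of 1.70. These 12 had been chosen by likeness to a profile that was higher at 5 mM, so their being higher was largely set by that choice. At a stretch of 8 bases 0 of 1185 tested non-members were in step, and at 9 bases 5 of 340 were. Of all 442 tested non-members with such a stretch, 12 (2.71%) were in step, so most were not. Among the 30587 without one, 5 (0.016%) were. Examples are printed with the repeat bases in capitals and the differing base in lower case between them.
MYOD1: gcgggcgcgAACCCcAACCCgatttaccag
STAT5A: tacccacagAACCCTgACCCggtgctcgac
PCARE: actctgtgtgCCCTAAaCCctcaacctttc
PHLDB1: tgactgagagCCCgAACCCggccctcacct
MYOD1, the transcription factor of skeletal muscle, was the probe most like the profile and read -2.64, -4.90, -3.10 and -3.91, then -1.39, -1.45, -1.96 and -1.40, a difference of 2.09 ± 0.46 without overlap. STAT5A, a transcription factor of cytokine and prolactin signalling, differed by 1.69 ± 0.49 in this probe and by -0.071 ± 0.26 in a second probe and another probe was not well above background on any array. PCARE, a photoreceptor gene, differed by 1.71 ± 0.48, and PHLDB1 by 1.79 ± 0.47. SPINDOC (1.94 ± 0.50), NCLN (1.09 ± 0.29), TKDP3, a trophoblast protease inhibitor gene (1.85 ± 0.58), and LARP1, an RNA-binding protein (1.61 ± 0.29), completed the 8 most alike.

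The G-rich strand was read by 52 probes. Their 44 tested probes had a median difference of 0.0062, from -1.53 to 0.75, with 23 higher in the 5 mM group. At least 2-fold higher were 0, at least 2-fold lower were 2, and 1 had separate groups with 5 mM higher. Of all tested probes 1.36%, 3.96% and 1.02% were so. None was in step, where 0.12% of all tested probes were, and the median r with the profile was 0.008. With 44 probes, these counts are near the background. Their medians by array, centred, were -0.027, 0.058, 0.068 and -0.020, then 0.029, 0.064, -0.038 and 0.055, which shows no dip at 0 mM replicate 2. In each of the 3 ranges of level 0 G-rich probes were at least 2-fold higher. These ranges held 14 tested G-rich probes above 0, 22 from -3 to 0 and 8 below -3. Of all tested probes in the same ranges 0.657%, 1.57% and 1.87% were at least 2-fold higher, so each 0 is near background.

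The longest G-rich match, of 11 bases, was in the probe of RHBDL2, a rhomboid protease of epithelial cells (chr3:114156257-114156316, plus strand). It read 0.50, -0.65, -0.012 and -0.36, then -5.91, -0.36, 0.091 and -0.27, so that 5 mM replicate 1 alone was low and the difference was -1.48 ± 1.27. FOXA3, a transcription factor of endodermal epithelium with a match of 9, differed by -1.53 ± 1.77 and stood at -8.19 on the same array. That array also had the low mean of epithelial markers, and the part of those cells in these values was not tested.

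VPS50, a tethering factor of endosomes with a match of 10, read 0.14, 0.27, -0.40 and -0.25, then 0.42, -0.077, -0.049 and -0.10, a difference of 0.11 ± 0.21 with overlap. AIFM1, a mitochondrial flavoprotein with a match of 10, differed by -0.22 ± 0.24. PRDX2, a peroxiredoxin with a match of 9, differed by -0.089 ± 0.29. RRAS2, a small GTPase with a match of 8, had the largest positive difference, 0.75 ± 0.37, with overlapping groups.

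The 18 C-rich members that were not tested stood at -8.98 to -6.48 in group means, near background. Their differences ran from -0.80 to 1.08 with a median of 0.21, and 2 were at least 2-fold higher. Tested members with a level near background were uneven too. A_73_P487578 differed by 2.11 ± 0.81 with a signal well above background in 1 cow at 0 mM and 3 cows at 5 mM, and A_73_115212 differed by 2.08 ± 1.5 and was highest on 5 mM replicate 1, at 0.41. Neither was in step, and in both the groups overlapped.

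Genes that act at telomeres were read from a list of shelterin, telomerase, CST and telomere-processing genes. The array had 33 of them, and 31 were tested, all by probes without a match of 8 or more. At an adjusted p under 0.05 there were 0, and by the sign of the difference 18 were higher and 13 lower, with a median of 0.097 and a range from -0.85 to 0.34. None was in step, where 0.12% of all tested probes were, so with 31 genes a count of 0 is near that background. The 3 with the lowest unadjusted p were PINX1, an inhibitor of telomerase (0.21 ± 0.15), ZBTB48, a zinc finger protein that binds telomere repeats (-0.33 ± 0.24), and SP100, a nuclear body component (-0.85 ± 0.68). TERT, the catalytic subunit of telomerase, was on the array but was not tested.

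Some other measures ran against the profile of the long matches over the 8 arrays. Their r with it was -0.78 for the share of probes well above background, -0.82 for T and NK cell markers and -0.86 for B cell markers. The other cell type lists had weaker r, from -0.49 for ciliated cells to 0.47 for smooth muscle. The other array measures ran from -0.34 for the 75th percentile signal to 0.32 for the negative controls. The share of probes well above background was 72.2%, 73.0%, 68.5% and 73.2% at 0 mM and 68.3%, 70.3%, 70.4% and 68.5% at 5 mM. The centred mean of 8 T and NK cell markers, with 7 lower and 1 higher in the 5 mM group, was -0.22, 0.94, 0.18 and 0.58, then -1.13, -0.094, -0.28 and 0.019. It was highest on 0 mM replicate 2, the array where the members in step were lowest, and lowest on 5 mM replicate 1. The 4 tested B cell markers, all lower, stood at 0.77, 1.43, 0.050 and 0.46, then -0.43, -1.49, -0.19 and -0.60. The uncentred means ran from -2.50 to -1.34 for T and NK cells and from -4.70 to -3.33 for B cells at 0 mM, and from -3.41 to -2.26 and from -6.24 to -4.94 at 5 mM. All 8 T and NK cell markers were tested, and of the 5 B cell markers on the array CD79B was not. The part of these cells, and of the share above background, in the values of the C-rich members was not tested.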

How the data were processed

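Total RNA was labelled with Cy3 and hybridised to one-colour Agilent arrays of design 023647, 1 per cow, per the labels' protocols and the file headers. The deposited values used are intensities, background-subtracted by Feature Extraction and not scaled between arrays, per the file headers. Those headers name version 11.5.1.1, whereas 10.5.1.1 is in the submitters' processing notes. The deposited series table of log2 values was used only as an alternative. Its scale and centring were found by comparison, with column medians of -0.016, -0.023, 0.00088, -0.0062, 0.13, -0.0049, -0.011 and 0.013. How the authors set these is not given in the sources used here.

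Control spots and outlier spots were left out, log2 intensities were taken, and the array's 75th percentile was subtracted, with 461 values missing among tested probes. Each member lies on 1 spot. Repeat matches were counted on the deposited probe sequences (Python 3.11.15, pandas 2.3.3). Differences and SEs came from limma 3.58.1 (lmFit and eBayes without trend, R 4.3.3) over 31108 probes, adjusted by Benjamini-Hochberg. The fit and the matching were tested on simulated data. Symbols came from the files and a RefSeq table of assembly ARS-UCD2.0, and 34110 of 43653 probes and 72 of the 97 members had one. Coordinates are those of the files. No genome of that build was used here, so exons are not given. Probes without a symbol, or with one beginning with LOC, are named by identifier.

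Named probes were the up to 12 longest C-rich matches, 4 further bright ones and 6 with the largest differences, and those of 7 genes. Added to these were 4 long and 3 far-apart G-rich probes, 3 with a match of 7, the 8 non-members most like the profile and 3 telomere genes. Members printed beside these (TGFBR3, SGSH, TSPAN7, RHOG and the 3 by identifier) were chosen for being in step, and the values of 1 further such member are not reported here. The members, lists and rule were chosen with earlier results of these data known. Both replicates numbered 1 were on slide 1. On slide 2 were 0 mM replicates 2 and 3 with 5 mM replicate 2, and on slide 3 the other 3 arrays. Alternatives were other normalizations, normexp with an offset of 50, other filters, slide and replicate blocks, values within slides, and leaving out each cow.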

Additional observations from a re-analysis of the deposited data

Results flagged for a closer look

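Among 102 groups of 4 values, of named probes, 8 held 1 array whose gap to the nearest other was large against the range of its group by Dixon's criterion, and chance gives about 1 in 20. RAN probe A_73_P041616 read 3.39 on 0 mM replicate 4, with the other 3 arrays of the group all at 3.53, and 3.77 on 5 mM replicate 1, with the others at 3.65 to 3.66. RAN probe A_73_P067986 read 3.26 on 5 mM replicate 3 (others 3.02 to 3.05). A pair of the probes in step with the long matches were low on 5 mM replicate 3, GATA4 at -1.25 (others -0.84 to -0.79) and MYOD1 at -1.96 (others -1.45 to -1.39). TYRP1, with a match of 7, read -5.77 on 5 mM replicate 2 (others -4.94 to -4.85). On 5 mM replicate 1 the G-rich probe of RHBDL2 read -5.91 (others -0.36 to 0.091) and that of VPS50 read 0.42 (others -0.10 to -0.049).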

How the results depend on the processing

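The median difference of C-rich probes with a match of 10 or more was 1.13 to 2.31 over 21 alternatives and 1.45 to 2.23 with each cow left out in turn, lowest without 0 mM replicate 2. It was 1.13, 2.31 and 1.91 within slides 1, 2 and 3. For matches of 9 it was 0.42 to 0.86, with 0.42 to 0.82 leaving out a cow, and for matches of 8 it was 0.14 to 0.44, with 0.14 to 0.29 leaving out a cow and 0.44 within slide 1. The G-rich median was 0.062 with a median shift and 0.069 within slide 1, and ran from -0.013 to 0.079 leaving out a cow, so it has no settled sign. With normexp the 3 C-rich medians were 1.52, 0.54 and 0.23. The 22 members at an unadjusted p under 0.05 and 2-fold higher became 19 to 24 over 17 alternatives, and 0 probes passed the adjusted threshold in any of the 17. The count of all tested probes higher by the first rule, 63, was 30 with normexp, 160 without a filter, 137 with a replicate block and, by the cow left out, 130 (0 mM replicate 1), 162 (5 mM replicate 2) and 145 (5 mM replicate 4); the cause was not tested. Members in step numbered 20, 19 to 22 leaving out a cow, 15 with group means removed and 22 with normexp, while other probes in step numbered 17, 30 to 65, 18 and 15. These in-step settings and the count of all higher probes were chosen after seeing the data. Of 12 named members in step, 0 changed sign in any alternative (0.87 to 3.11), against 6 of 13 named C-rich members not in step and 8 of 22 other named probes. The 12 had been chosen by likeness to a profile that was higher at 5 mM, so this contrast was largely set by that choice. The labels do not say whether replicate numbers pair the cows, and they were not taken as pairs because same-numbered arrays deviated with r of 0.40, 0.36, -0.30 and 0.31, not all positive. Those numbered 1, 2 and 4 share a slide. With the replicate block the median for matches of 10 or more was 1.94. Each slide value rests on 1 to 2 arrays a group. Values near background limit the dimmest members.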

Other observations

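The 2 tested C-rich members that were at least 2-fold lower in the 5 mM group were chosen after their values were seen. SLC6A20, an amino acid transporter of epithelial membranes, read -0.057, 0.27, 2.62 and 1.71 at 0 mM and -3.44, 1.85, -2.34 and 2.12 at 5 mM, a difference of -1.59 ± 1.35. TMEM217 read -5.00, -3.25, -0.88 and -2.72, then -7.91, -2.39, -5.12 and -3.20, a difference of -1.69 ± 1.30. Both were lowest on 5 mM replicate 1, the array with the lowest epithelial marker mean, and in both the groups overlapped. Neither was in step with the long matches.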
